A study of Mus musculus with 12 samples.

Results

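The translation initiation factors (eIFs) and elongation factors (eEFs) of mouse CD8+ T cells are described here, with their direct regulators and modifying enzymes. Members were taken by name, as genes whose symbol starts with Eif followed by a digit from 1 to 6, or with Eef followed by 1 or 2, without pseudogenes and without Eif2ak2. The rule used no measured value. It gave 64 of the 13780 genes listed, and all 64 passed the filter on low counts, as did 13767 genes in all.

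RNA-seq was carried out on 12 libraries, 4 for each of 3 groups. Naïve cells were taken from spleens of wild type C57BL/6J mice by positive selection on magnetic beads and frozen at once without treatment. Media and lactate cells were activated for 72 h with CD3/CD28 beads and interleukin 2, in plain media or with 40 mM sodium lactate added just before the beads. The control for this experiment was plain media and not sodium chloride, so lactate, sodium and osmolality changed together and cannot be told apart, and the age and sex of each animal are not given in the labels.

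Initiation begins when eIF2, loaded with GTP and the initiator tRNA, joins the small ribosomal subunit with eIF3, eIF1 and eIF1A. The cap-binding complex eIF4F, made of eIF4E, the scaffold eIF4G and the helicase eIF4A, brings the mRNA, and eIF5 and eIF5B then let the start codon be chosen and the large subunit join. eIF2 is recharged by eIF2B and switched off by kinases that phosphorylate its alpha subunit, while 4E-BPs hold eIF4E until mTORC1 phosphorylates them. In elongation, eEF1A delivers aminoacyl-tRNA, eEF1B recharges eEF1A, and eEF2 moves the ribosome. T cells are small and make little protein at rest, and they enlarge the translation apparatus as they are activated.

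Promoter windows of RefSeq (build GRCm38.p6, 250 bases before to 50 after an annotated start) were found for 51 of the 64 members, and 4 are shown because they hold the E-box CACGTG, the palindrome bound by Myc, Max and other bHLH factors, ahead of members that lay far apart in their response. Eif5a encodes eIF5A, which keeps ribosomes moving through difficult peptide bonds and was among the members that rose most with lactate. Eif3f encodes an eIF3 subunit, Eef2 the translocase, and Eef2k the kinase that switches eEF2 off, and none of these 3 passed the test for lactate against media. Each run below is 150 bases long, ends next to the annotated start and is written 5′ to 3′ on the strand of the gene, with CACGTG in capitals.
Eif5a (chr11:69921387-69921536, minus strand): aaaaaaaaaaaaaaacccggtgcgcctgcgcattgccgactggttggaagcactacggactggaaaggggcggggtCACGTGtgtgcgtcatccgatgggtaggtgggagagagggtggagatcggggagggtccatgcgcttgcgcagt
Eif3f (chr7:108934265-108934414, plus strand): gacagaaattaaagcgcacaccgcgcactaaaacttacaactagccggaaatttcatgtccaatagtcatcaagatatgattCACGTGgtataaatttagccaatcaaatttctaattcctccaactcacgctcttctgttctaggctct
Eef2 (chr10:81176481-81176630, plus strand): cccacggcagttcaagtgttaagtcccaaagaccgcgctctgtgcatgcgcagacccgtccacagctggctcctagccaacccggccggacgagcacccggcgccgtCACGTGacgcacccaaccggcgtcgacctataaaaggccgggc
Eef2k (chr7:120842681-120842830, plus strand): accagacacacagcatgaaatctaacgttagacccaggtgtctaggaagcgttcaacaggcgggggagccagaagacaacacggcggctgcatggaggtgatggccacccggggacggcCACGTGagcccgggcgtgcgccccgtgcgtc

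The Eif5a run lies in an intron of longer Eif5a transcripts and the other 3 lie outside any gene of GENCODE M21. Eif5a has 6 annotated starts, of which 1 is shown. CACGTG, which reads the same on both strands, was in a window of 14 of the 51 members (27.5%), beside 11.8% of the 9779 genes of the table with a window. Of those 14 members 6 rose with lactate (42.9%), and of the 37 members without it 22 rose (59.5%). The difference between these shares was not tested. The 13 members without a window, among them Eif2b3, Eif6 and Eif1a, are not part of it. Transcripts of many translation genes start with a C followed by a run of C and T, the terminal oligopyrimidine tract. A C and then 4 bases that were each C or T stood at an annotated start of 2 of the 51 members (3.92%) and of 2.99% of all genes with a window. A tract that begins some bases away from the annotated start was missed. Eef1a1, with a run of 5 pyrimidines that begins with T, was not counted. The shares thus do not show how many members carry such a tract. The 2 members counted are shown as 30 bases around the start, with the pyrimidine run in capitals.
Eif3f: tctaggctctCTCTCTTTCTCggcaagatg
Eif2s3x: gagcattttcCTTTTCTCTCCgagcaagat

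The libraries held 14726904 to 21478137 counts, and no pair of a group agreed within sampling noise. CD8 T cell markers (Cd3e, Cd3d, Cd8a, Cd8b1) were high in every library, with a summed level of 1365 to 3112 CPM (counts scaled to the library size with edgeR's TMM factors) in naïve, 2260 to 2813 in media and 1779 to 2225 in lactate samples. The naïve samples also held markers of other cells. The 3 B cell markers summed to 302.5 to 734 CPM there and to 0.495 to 6.14 CPM in activated samples, the 3 myeloid markers to 335 to 1081 and to at most 0.928, the 2 red cell markers of the table to 53.8 to 2091 and to at most 1.28, and Cd4 stood at 11.2 to 27.1 and at most 0.99. Lyz2, Csf1r and Ms4a1 were at 0 in some activated samples. RNA of other cells was thus present in the naïve samples, and its part in the results against naïve cells was not tested. In bulk RNA, fewer cells of a type and less RNA per cell cannot be told apart.

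The members took a larger share of the RNA at each step. Their summed counts were 2.36% ± 0.0657 (SD, n = 4) of the library in naïve cells, 3.08% ± 0.214 in media and 3.71% ± 0.212 in lactate. The range was 2.27 to 2.42% in naïve, 2.81 to 3.33% in media and 3.51 to 3.93% in lactate, so no group overlapped another. Media 4, lactate 3 and lactate 4, which carry higher library numbers, held 3.33%, 3.93% and 3.84%. The lower numbers held 2.81 to 3.12% in media and 3.51 to 3.54% in lactate. Naïve 4, also of the higher numbers, lay within the naïve range at 2.41%. The part of this batch in the shares was not tested. Eef1a1, which encodes eEF1A1, gave 0.674% ± 0.0217, 0.805% ± 0.0881 and 0.897% ± 0.103 of all counts in the 3 groups. Per length, Eef1a1 was the most abundant member, at 9171, 11031 and 11532 TPM (counts per length of the gene, scaled to the same sum in every library), followed by Eef2 at 5322, 9231 and 9057 TPM. The lowest was Eif3j2, a second gene for the eIF3j subunit, at 0.911, 1.47 and 1.74 TPM.

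With lactate, 37 of the 64 members rose and 0 fell relative to media, by the quasi-likelihood test of edgeR with a threshold of 0.01 on the p adjusted over all genes (Benjamini-Hochberg). Over all genes, 25.1% passed (13.9% higher and 11.1% lower), beside 57.8% of the members. The median log2 fold change was 0.47 for the members and -0.0016 for all genes tested. At an unadjusted p under 0.05 (edgeR), 45 members were higher and 0 lower, beside 3414 and 3225 of the 13767 genes tested. DESeq2 called 39 members higher and 0 lower, and its share over all genes was not taken. The 4 lactate values all lay above the 4 media values for 42 members and all below them for Eif2ak3 and Eef2k, beside 23.2% and 21.5% of all genes (44.7% in either direction).

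Media and lactate libraries shared 3 donors. With the donor as a block in the fit of all 12 libraries, 15 of the 37 members were higher, beside 7.21% of all genes passing and 4.54% higher. These were Eif1a, Eif1ad, Eif1ax, Eif2b2, Eif2b3, Eif3b, Eif4a1, Eif4a3, Eif4e, Eif4e3, Eif4g1, Eif5a, Eif6, Eef1aknmt and Eef1e1, and the other 22 had an adjusted p of 0.0124 to 0.0675. With the same block and the 8 activated libraries alone, a fit chosen after the data had been seen, 34 were higher, 32 of them among the 37, and 1 was lower (Eif2ak3), beside 27.4% of all genes passing and 14.7% higher. Within the lower and the higher run of library numbers, taken as batches, 56 and 55 of all 64 members were higher with lactate, with a median log2 difference of 0.47 and 0.46, though the higher run had 1 media library.

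**Figure D1:**
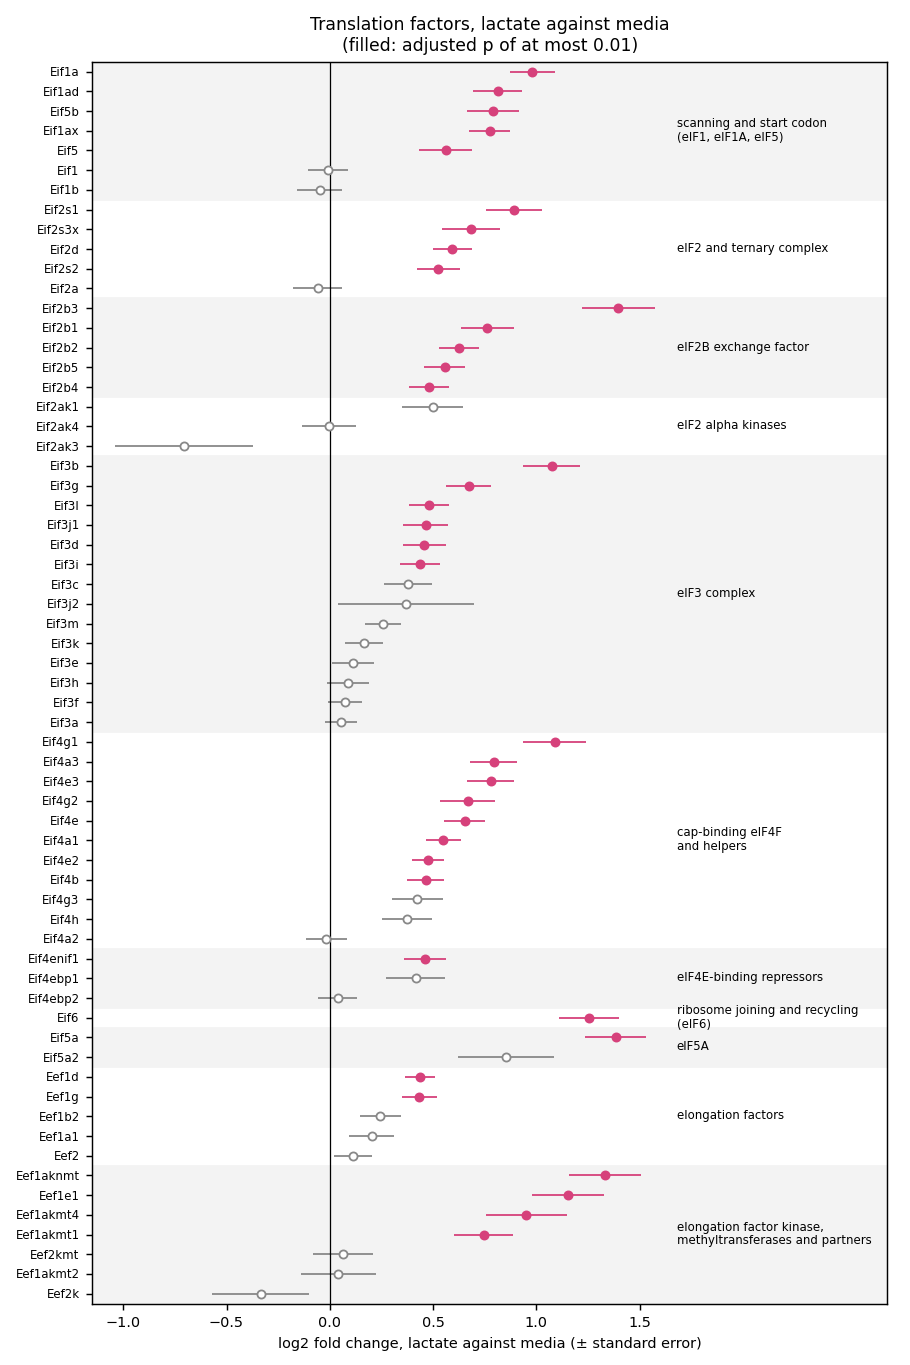
The log2 fold change of each member in lactate against media, with its standard error, grouped by role; filled points passed the adjusted p of 0.01. All 37 filled points lie to the right of 0, and Eif2s3y, whose standard error was 1.56, is left out for scale.

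Every subunit of eIF2B, the exchange factor that recharges eIF2 with GTP, rose with lactate. The 5 subunits rose by 0.48 to 1.40 on the log2 scale. With the donor block in 12 libraries Eif2b2 and Eif2b3 kept the call, while Eif2b1, Eif2b4 and Eif2b5 lost it, at adjusted p of 0.02, 0.026 and 0.027. Eif2b3, the gamma subunit, stood at 19.9, 12.4, 19.9 and 15.9 CPM in media and at 52.8, 41.9, 45.3 and 39.6 CPM in lactate. The groups were well apart, with the lowest lactate sample at 39.6 CPM and the media mean at 17 CPM. The log2 fold change of Eif2b3 was 1.40 ± 0.18 (SE), or 2.63-fold, the largest of the members that passed (adjusted p = 0.000133, edgeR). Naïve cells held 15.6 ± 2.68 CPM of Eif2b3 (SD, n = 4), and media against naïve gave 0.12 ± 0.18 (adjusted p = 0.546).

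Of the 6 members of the eIF2 group, 4 rose. Eif2s1, the alpha subunit that the stress kinases phosphorylate, had 127, 96.9, 136 and 121 CPM in media and 241, 181, 249 and 221 CPM in lactate. No lactate sample reached down to the media samples, and the log2 fold change was 0.89 ± 0.13 (adjusted p = 0.000342, and 0.012 with the donor block in all 12 libraries). Eif2s2, the beta subunit, rose by 0.52 ± 0.10, Eif2s3x, the X-linked gamma subunit, by 0.68 ± 0.14, and Eif2d, a non-canonical factor for tRNA delivery and ribosome recycling, by 0.59 ± 0.09. These 3 passed at adjusted p of 0.00184, 0.00238 and 0.000497, and at 0.04, 0.027 and 0.02 with the donor block in 12 libraries. Without lactate 3 the adjusted p of Eif2s3x was 0.011. Eif2a, a separate factor that is not a subunit of eIF2, gave -0.06 ± 0.12 (adjusted p = 0.732).

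Eif2s3y, the Y-linked copy of the gamma subunit, split the libraries within each group. It had 0 counts in naïve 1, media 3 and lactate 2 and 0.0707 CPM in lactate 3, and 37.4 to 92.9 CPM in the other 8 libraries. Media 3 and lactate 2 carry the same donor label. The log2 fold change of Eif2s3y was -0.44 ± 1.56 for lactate against media (adjusted p = 0.857), so no difference was detectable. Lactate held more libraries with Eif2s3y at or near 0 than media. Whether the sex of the animals had a part in other values, Eif2s3x among them, was not tested.

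None of the 3 kinases of eIF2 alpha passed. Eif2ak3 (PERK, the kinase of the endoplasmic reticulum) had 70.9, 87.9, 88.1 and 82.6 CPM in media and 45.9, 50.5, 50.8 and 55 CPM in lactate. The activated groups did not overlap, but the log2 fold change of -0.70 ± 0.33 did not pass (adjusted p = 0.114). In naïve cells Eif2ak3 stood at 62.6, 58.4, 53.5 and 188 CPM, with naïve 4 far above the rest. Without naïve 4 the adjusted p for lactate against media was 0.000101, with the 2 groups alone it was 0.000252, and with the donor block in the 8 activated libraries it was 0.00104, while with the donor block in all 12 libraries it was 0.36. Eif2ak1, the heme-regulated kinase, gave 0.50 ± 0.15 (adjusted p = 0.0171, 0.0015 with the 2 groups alone, 0.004 with the donor block in 8 libraries and 0.11 with that block in 12), and Eif2ak4 (GCN2, which senses uncharged tRNA) gave -0.01 ± 0.13 (adjusted p = 0.993).

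Of the 7 genes grouped by name with the scanning and start codon factors, Eif1ad and Eif5b among them, 5 rose. Eif1a, a gene for the scanning factor eIF1A, had 62.9, 51.2, 66.5 and 63.5 CPM in media and 141, 107, 120.5 and 113 CPM in lactate. Its level in media was close to the naïve level of 59.1 ± 3.22 CPM, and it rose by 0.98 ± 0.11 with lactate (adjusted p = 7.59e-05, edgeR). Eif1ad, an eIF1A domain protein, rose by 0.81 ± 0.12, Eif1ax, the X-linked eIF1A gene, by 0.77 ± 0.10, and Eif5b, the GTPase of subunit joining, by 0.79 ± 0.12. Eif1 and Eif1b, for the small factor that guards start codon choice, gave -0.01 ± 0.10 and -0.05 ± 0.11 and did not pass. Eif5, the GTPase activator of eIF2, fell on activation and is given with the media and naïve groups below.

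The eIF3 complex, the largest initiation factor and the platform on the small subunit, rose in part. All 14 genes had a positive log2 fold change, with a median of 0.37, and 6 passed (Eif3b, Eif3d, Eif3g, Eif3i, Eif3j1 and Eif3l). Eif3b, the scaffold of the complex, had 279, 184, 276 and 236 CPM in media and 559.7, 449, 521 and 523 CPM in lactate. It lay well apart in lactate and rose by 1.07 ± 0.14 (2.1-fold, adjusted p = 0.000153). Eif3g rose by 0.67 ± 0.11 (adjusted p = 0.000577, and 0.02 with the donor block in 12 libraries), and the other 4 by 0.44 to 0.48. Eif3a, the other large core subunit, gave 0.06 ± 0.08 (adjusted p = 0.614), and Eif3e, Eif3f, Eif3h and Eif3k gave 0.07 to 0.17. By TPM the median subunit stood at 174 in naïve, 265 in media and 292 in lactate cells, and Eif3h was the highest in each group.

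The share of exon bases that overlap a gene on the opposite strand was 43.3% for Eif3d and 19% for Eif3j1, and whether the counting used strand is not stated. Eif3d, Eif3i, Eif3j1 and Eif3l lost their call without 1 or more of the activated libraries (adjusted p up to 0.016, 0.017, 0.021 and 0.011), and with the donor block in 12 libraries their adjusted p was 0.067, 0.041, 0.061 and 0.034, so that of the 6 subunits Eif3b kept its call there.

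**Figure D2:**
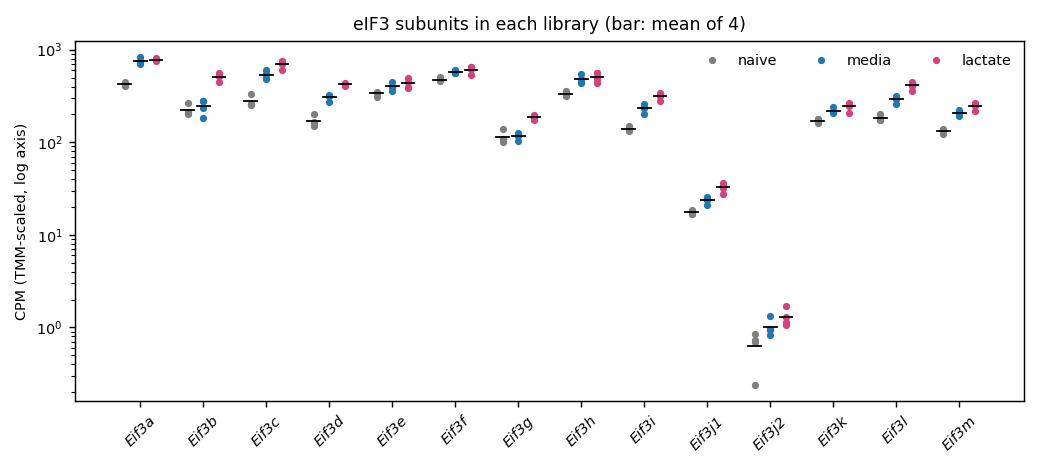
CPM of the 14 eIF3 subunit genes in each library on a log axis, with points for the 4 libraries of a group and a bar at their mean. Lactate and media do not overlap for 6 of the 14 subunits, with Eif3b and Eif3g among them. Naïve and media do not overlap for 11, with Eif3a among them, and Eif3j2 stays between 0.24 and 1.69 CPM.

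In the cap-binding group 8 of 11 members rose. Eif4g1, the main scaffold of eIF4F, had 471, 469, 503 and 606 CPM in naïve, 441, 325, 414 and 316 CPM in media and 998, 676, 747 and 760.3 CPM in lactate. Lactate 1 was the highest library, and the lactate samples lay above all others. The log2 fold change was 1.09 ± 0.15 against media (adjusted p = 0.000224) and 0.64 ± 0.15 against naïve cells (adjusted p = 0.0019). Eif4e, the cap-binding protein, rose by 0.65 ± 0.10, Eif4e3, a second cap-binding relative, by 0.78 ± 0.12, and Eif4a3, the helicase of the exon junction complex, by 0.79 ± 0.11. Eif4a1, the main helicase of eIF4F, rose by 0.55 ± 0.09, while its paralog Eif4a2 gave -0.02 ± 0.10 (adjusted p = 0.92). Eif4b, an activator of eIF4A, rose by 0.47 ± 0.09 and Eif4h, a related activator, gave 0.37 ± 0.12 (adjusted p = 0.025). Of the repressors of eIF4E, Eif4enif1 (4E-T) rose by 0.46 ± 0.10 (adjusted p = 0.0036, and up to 0.014 without 1 of 5 activated libraries), while Eif4ebp1 gave 0.42 ± 0.14 (adjusted p = 0.0356) and Eif4ebp2 0.04 ± 0.10 (adjusted p = 0.792).

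Eif5a, the factor of difficult peptide bonds, had 352, 380.0, 391 and 356 CPM in naïve, 809, 454, 722 and 669 CPM in media and 1780, 1536, 1858 and 1754 CPM in lactate. The 3 groups formed separate steps, with the lowest lactate sample at 1536 CPM and the highest media sample at 809 CPM. The log2 fold change was 1.38 ± 0.15 with lactate (2.61-fold, adjusted p = 6.57e-05) and 0.84 ± 0.15 for media against naïve cells (adjusted p = 0.000232). In TPM, Eif5a went from 530.5 in naïve to 968 in media and 2297 in lactate cells. Its paralog Eif5a2 stood at 9.39 to 12.4 CPM in media and 16.5 to 25.7 CPM in lactate, with 0.85 ± 0.23 (adjusted p = 0.0117, with 0.0043 under the donor block in 8 libraries and 0.118 under that block in 12). Eif5a is active once a lysine is turned into hypusine by Dhps and Dohh. Both enzymes rose with lactate, Dhps from 23.1 to 42.5 CPM (0.88 ± 0.11, adjusted p = 0.000118) and Dohh from 9.43 to 16.1 CPM (0.77 ± 0.14, adjusted p = 0.0013).

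Eif6, which keeps the large subunit from joining too early and serves in its assembly, had 75.9, 54.6, 65.7 and 74.5 CPM in media and 177, 147, 162 and 160.0 CPM in lactate. Naïve cells had 72.1, 74.9, 76.1 and 109 CPM, so media and naïve samples overlapped and lactate samples lay above both. Eif6 rose by 1.25 ± 0.15 with lactate (adjusted p = 9.56e-05).

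Among the 5 elongation factors themselves, 2 rose. Eef1d and Eef1g, subunits of the eEF1B exchange complex, rose by 0.44 ± 0.07 (adjusted p = 0.000653) and 0.43 ± 0.08 (adjusted p = 0.00156), and at 0.018 and 0.028 with the donor block in 12 libraries they lost the call. Eef1a1 had 7863, 7264, 7494 and 9180 CPM in media and 7883, 8352, 10501 and 9857 CPM in lactate. Eef2 had 8489, 8568, 8717 and 9676 CPM in media and 8603, 8564, 10679 and 10452 CPM in lactate. The groups overlapped for both, and the log2 fold changes were 0.20 ± 0.11 (adjusted p = 0.154) and 0.11 ± 0.09 (adjusted p = 0.37). Eef1a1 has many processed pseudogenes, and reads that match several places were not counted, so its level is uncertain. Eef1b2, the third exchange subunit measured, gave 0.25 ± 0.10 (adjusted p = 0.0708).

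Of the 7 enzymes and partners around the elongation factors, 4 rose. Eef1aknmt (also Mettl13), which methylates eEF1A, had 21.8, 13.8, 22.1 and 22.4 CPM in media and 60.3, 41.8, 51.9 and 48.1 CPM in lactate. The lowest lactate value was 41.8 CPM and the highest in media 22.4 CPM, and the log2 fold change was 1.33 ± 0.17 (adjusted p = 0.00016). Eef1e1, a scaffold protein of the aminoacyl-tRNA synthetase complex, had 42.7, 25.6, 42.2 and 30.6 CPM in media and 94.5, 67.3, 81.7 and 70.6 CPM in lactate. It too was separate between the groups and rose by 1.15 ± 0.17 (adjusted p = 0.000343).

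Eef1akmt4, another eEF1A methyltransferase, was low, at 4.58, 2.46, 3.46 and 4.26 CPM in media and 7.64, 7.02, 6.72 and 7.18 CPM in lactate. It rose by 0.95 ± 0.20 (adjusted p = 0.00235, and 0.02 with the donor block in 12 libraries). Of its exon bases 30.7% overlap another gene on the same strand, so its reads are uncertain. Eef1akmt1 rose by 0.75 ± 0.14 (adjusted p = 0.0015), while Eef1akmt2 and Eef2kmt, the eEF2 methyltransferase, gave 0.04 ± 0.18 and 0.06 ± 0.15. Eef2k had 31, 34.5, 34.3 and 26.8 CPM in media and 25.2, 25.9, 25 and 24.4 CPM in lactate. All lactate values lay below those in media, but the log2 fold change of -0.33 ± 0.23 did not pass (adjusted p = 0.281).

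**Figure D3:**
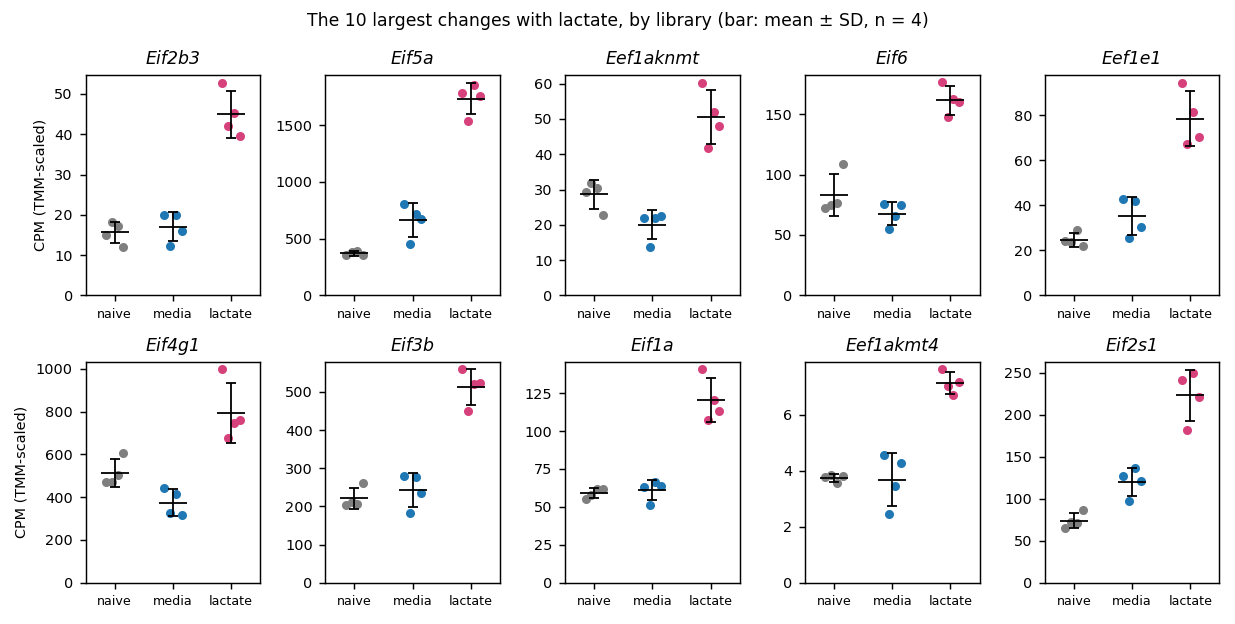
CPM of the 10 members with the largest change in lactate against media among those that passed and whose samples did not overlap, with each library as a point and bars for the mean and SD of 4. Every lactate point lies above every media point, and for Eif2b3, Eif6, Eif3b, Eif1a and Eef1akmt4 the media level is close to the naïve level.

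Activation in plain media gave changes in both directions. Against naïve cells, 31 members rose and 7 fell in media, with a median log2 fold change of 0.36, beside 57.5% of all genes passing (28.5% higher and 29% lower) with a median of -0.03. The samples of the groups did not overlap for 34 members that were higher and 9 that were lower, beside 30.7% and 30.5% of all genes (61.2% in either direction). The largest increase was in Eif4ebp1 (4E-BP1), with 9.81, 11.5, 8.51 and 13.2 CPM in naïve and 128, 89.2, 128 and 103 CPM in media. The lowest media sample was far above the highest naïve sample, and the rise was 10.4-fold (3.38 ± 0.16, adjusted p = 5.97e-09).

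Eif2a rose from 65.9, 70.7, 72.1 and 75.7 CPM in naïve to 244, 273, 271 and 318 CPM in media (1.96 ± 0.12, adjusted p = 4.7e-08). Eif4e3 went from 17.2, 16.2, 19.8 and 17.4 CPM to 57.3, 54.7, 62.1 and 61.5 CPM (1.74 ± 0.12, adjusted p = 9.51e-08). Both were tight within each group, and 14.8% of the exon bases of Eif4e3 overlap another gene on the same strand. Eif2s2 rose from 59.3, 69.3, 62.8 and 77.2 CPM to 211, 184, 238 and 218 CPM (1.66 ± 0.11, adjusted p = 5.17e-08). Eif2d rose from 40.2, 40.7, 45.9 and 36 CPM to 90.5, 77.6, 92.9 and 85.6 CPM (1.09 ± 0.10, adjusted p = 7.77e-07). Cap-binding Eif4e rose from 37.9, 39.7, 39.4 and 42.1 CPM to 86.1, 73.3, 94.6 and 74.9 CPM (1.05 ± 0.10, adjusted p = 1.59e-06). For each of these 6 increases the naïve and media samples lay apart.

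The decreases were smaller. Eif4g2 (DAP5), an eIF4G relative without the eIF4E site, fell from 1193, 1148, 1232 and 1125 CPM to 593, 511, 640.2 and 653 CPM (-0.97 ± 0.13, adjusted p = 3.6e-05). Eif2ak1 fell from 89.7, 134, 79.4 and 109.6 CPM to 55.3, 54.5, 51.8 and 58.9 CPM (-0.90 ± 0.15, adjusted p = 0.000142). Eif2ak1 serves in red cell precursors, and the red cell markers also stood higher in naïve samples. Whether red cell RNA had a part in the fall of Eif2ak1 was not tested. Eif4g3, a second eIF4G scaffold, fell from 324, 298, 317 and 249 CPM to 186, 161, 168 and 142 CPM (-0.85 ± 0.12, adjusted p = 5.08e-05). Eif5 fell from 450.4, 485, 449 and 576 CPM to 262, 259.7, 290.3 and 358 CPM (-0.74 ± 0.13, adjusted p = 0.00023). Eif4a2 fell from 659, 656, 704 and 559 CPM to 390.2, 405, 427 and 481 CPM (-0.60 ± 0.10, adjusted p = 0.000159). Eif1 fell from 428, 438, 426 and 368 CPM to 298, 282, 299 and 347 CPM (-0.44 ± 0.10, adjusted p = 0.00158). None of these 6 overlapped between naïve and media. The other decrease was Eif4ebp2, at -0.32 ± 0.10 (adjusted p = 0.00942), which lost its call in several settings, with an adjusted p of up to 0.033 without media 3.

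**Figure D4:**
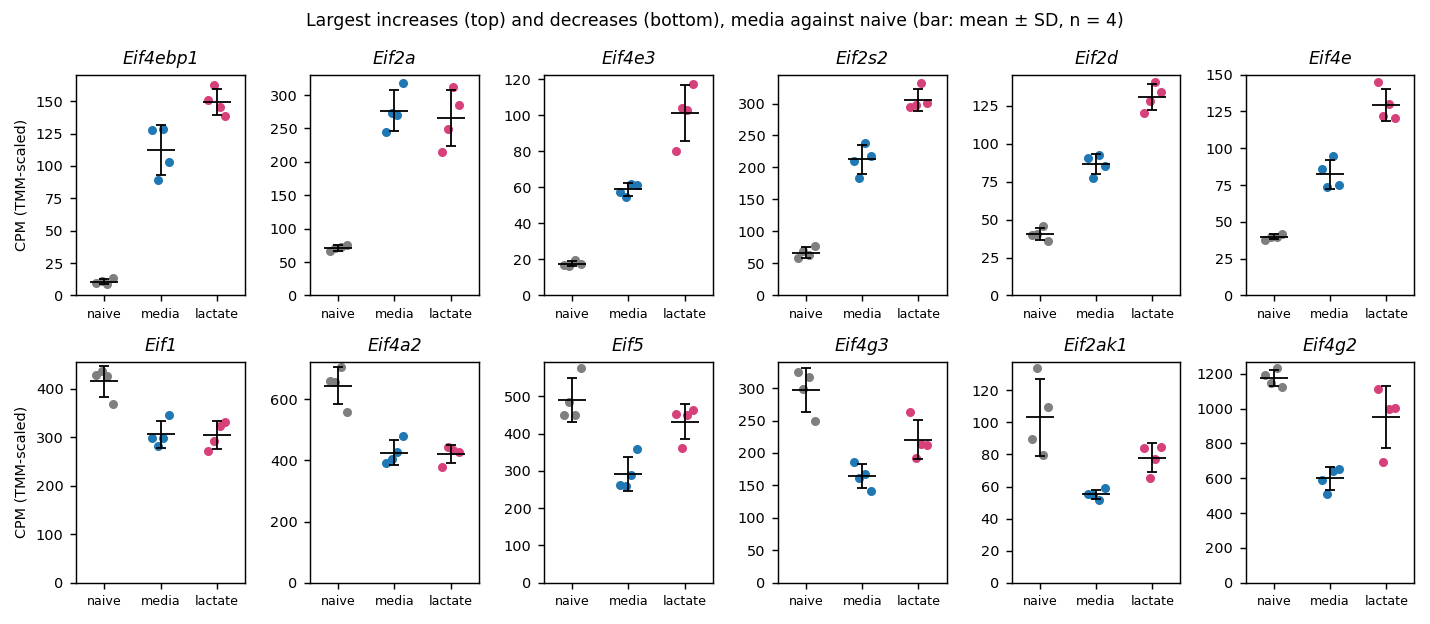
CPM of the 6 members with the largest increase (top) and the 6 with the largest decrease (bottom) in media against naïve cells, with each library as a point and bars for the mean and SD of 4. Eif4ebp1 rises from about 10.8 to 112 CPM, and Eif4g2 and Eif5 fall in media and stand higher again in lactate.

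The eIF2 group rose in 5 of 6 and eIF3 in 10 of 14 members on activation, beside 28.5% of all genes tested. Of the eIF2B subunits 2 of 5 rose, of the elongation factors 2 of 5, and of their enzymes and partners 1 of 7. Differences between these small groups were not tested. The comparisons share the media samples, so their values are set side by side and were not correlated. Of the 64 members, 18 rose on activation and again with lactate, among them Eif5a, Eif2s1, Eif2s2, Eif4e and Eif4a1, beside 656 of the 13767 genes tested. A further 17, beside 807 of all genes, passed as higher with lactate and not for media against naïve, among them Eif2b3, Eif6, Eif3b, Eif1a, Eif4g1 and Eef1aknmt. Eif4g1 stood at -0.45 ± 0.15 in media against naïve (adjusted p = 0.0164) and passed as lower with DESeq2 (adjusted p = 0.0028). Eif4g2 and Eif5 fell on activation and rose with lactate, as did 454 of all genes. Eif4g2 had 1112, 693, 999 and 1001 CPM in lactate (0.67 ± 0.13 against media, adjusted p = 0.00201), and Eif5 had 452, 361, 451 and 463 CPM (0.56 ± 0.13, adjusted p = 0.00449). With the donor block in 12 libraries their adjusted p was 0.033 and 0.042, and that of Eif5 was 0.013 to 0.018 without 1 of 6 activated libraries. Against naïve cells neither passed in lactate, at -0.30 ± 0.13 (adjusted p = 0.0542) and -0.18 ± 0.13 (adjusted p = 0.213).

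A further 13 members rose on activation and did not pass with lactate, among them Eif2a, Eif4ebp1, Eif3a and Eef2, beside 2774 of all genes. There were 5 that fell on activation and did not pass with lactate, beside 3099, and the remaining 9 passed in neither, beside 4443. For lactate against naïve cells, 52 members rose and 3 fell, with a median of 0.90, beside 65% of all genes passing (33% higher and 32% lower). All 4 lactate samples lay above all naïve samples for 54 members and below them for 3, beside 35% and 32.8% of all genes (67.8% in either direction). The 3 that fell were Eif1, Eif4a2 and Eif4g3.

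Ratios of related factors were taken per length. The TPM ratio of Eif4a1 to Eif4a2, the paired eIF4A helicases, was 0.713, 0.716, 0.705 and 0.876 in naïve, 1.73, 1.41, 1.56 and 1.43 in media and 2.74, 1.99, 2.16 and 2.2 in lactate. With the gene lengths used, Eif4a2 was the higher in every naïve library and Eif4a1 in every activated one. Other lengths would move this ratio alike in every library, so its change between groups is surer than which gene is higher. The ratio of Eif4ebp1 to Eif4ebp2, the 4E-BPs, had a mean of 0.0848 in naïve, 1.1 in media and 1.45 in lactate (means on the log2 scale, turned back to ratios). The ratio of Eif4g1 to Eif4g3 had a mean of 2.61, 3.42 and 5.44. In lactate it was 5.27 to 5.74 and in media 3.06 to 3.72, without overlap. The ratio of Eif4e to Eif4ebp1 went from a mean of 1.37 in naïve to 0.27 in media and 0.316 in lactate.

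Of 12 ratio comparisons, 5 reached the smallest p that 4 against 4 samples can give in a two-sided exact permutation test, 0.0286. These were Eif4a1 to Eif4a2 in lactate against media and in media against naïve, Eif4g1 to Eif4g3 in lactate against media, and Eif4ebp1 to Eif4ebp2 and Eif4e to Eif4ebp1 in media against naïve. Adjusted over the 12 tests this exact permutation p became 0.0686, so none passed 0.05 after adjustment.

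**Figure D5:**
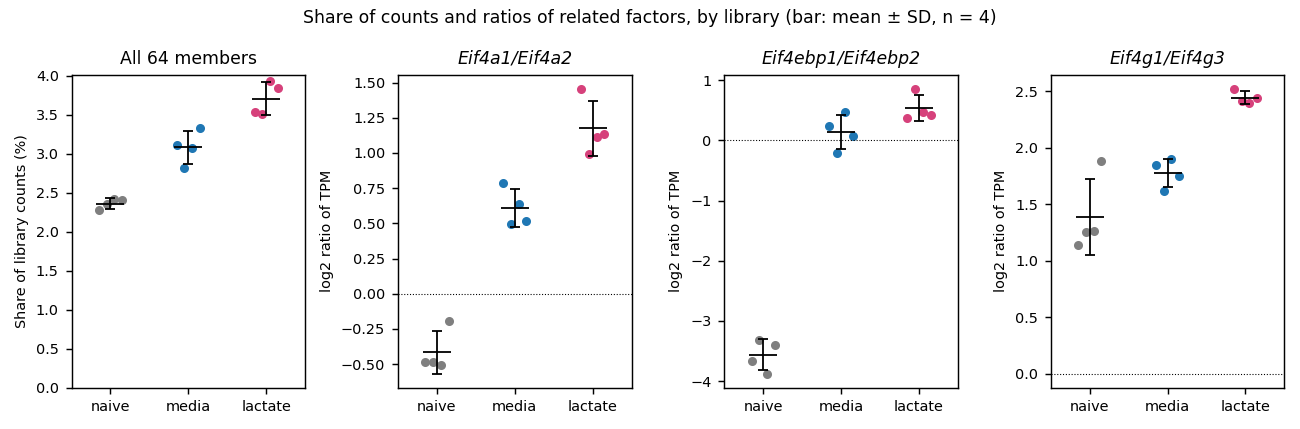
The share of library counts taken by the 64 members (left) and the log2 TPM ratio of 3 pairs of related factors, by library, with bars for the mean and SD of 4. The share rises from 2.36% to 3.08% and 3.71%, and with the gene lengths used Eif4a1/Eif4a2 crosses from below 0 in naïve to above 0 in activated cells.

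Of 44 other translation genes tested (cap, tail and scanning partners, eIF4E kinases and the mTORC1 branch, eIF2 alpha phosphatases, hypusine and diphthamide enzymes, and termination factors), 20 rose with lactate and 2 fell, with a median of 0.31, beside 13.9% of all genes higher and 11.1% lower. Termination and rescue factors rose in 4 of 5 cases, with Etf1 (eRF1), which reads stop codons, at 215 CPM in media and 453 in lactate (1.08 ± 0.17, adjusted p = 0.000393) and Pelo, which rescues stalled ribosomes, at 8.05 and 16.4 CPM (1.03 ± 0.12, adjusted p = 0.00011). Of 7 enzymes for diphthamide, the modified histidine of eEF2, Dph1, Dph2, Dph3 and Dph5 fell on activation and rose with lactate, and Dph5 went from 52 CPM in naïve to 18.9 in media and 34.2 in lactate. Scanning and recycling partners rose in 5 of 6 cases, led by the helicase Dhx29 (1.11 ± 0.17, adjusted p = 0.000453).

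Of 9 genes for eIF4E kinases and mTORC1 to S6 kinase signalling, 0 rose and 1 fell, a share lower of 11.1% that equals that of all genes. At an unadjusted p under 0.05 (edgeR), 0 were higher and 2 lower, beside 3414 and 3225 of the 13767 genes tested. The gene that fell was Tsc1, a brake on mTORC1, at 53.8 CPM in media and 38.6 in lactate (-0.48 ± 0.12, adjusted p = 0.00782). Paip2, which holds back the poly(A)-binding protein, fell, from 205 to 137 CPM (-0.58 ± 0.13, adjusted p = 0.00337). On activation 4 of the 44 genes rose and 11 fell, beside 28.5% of all genes higher and 29% lower, so the falls were no more frequent than over all genes. The largest fall was in Ppp1r15a (GADD34), the stress-induced partner of the eIF2 alpha phosphatase, from 766 ± 371 CPM in naïve to 60.5 ± 53 in media (SD, n = 4; adjusted p = 0.000685).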

How the data were processed

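The members and the lists of other genes were chosen with earlier results of these data known. The authors mapped single-end reads to GRCm38 with STAR 2.7.5b, discarded PCR duplicates, and used featureCounts on the exonic reads that mapped to 1 place, from a stranded mRNA kit whose setting at counting is not stated. The deposited table holds raw counts for each gene in 12 libraries, with a gene length. Genes with at least 1 CPM in 3 libraries were kept, which dropped 13. Counts were scaled by TMM and fitted in edgeR 4.0.16 (R 4.3.3, quasi-likelihood, all 3 groups together, no block, adjusted p of at most 0.01 over all genes). SE is the log2 fold change over the square root of F. TPM used the table's length, which equals the union of exons in GENCODE M21 for all 64 members, so levels between genes are approximate. Ratios used log2 of TPM plus 0.1 and exact permutation tests over 70 arrangements.

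Groups, donors and library numbers came from the labels. Donor tags were read within each run of library numbers, giving 5 donors of activated cells, 3 with both treatments. For these 3 pairs the deviations of media and lactate libraries from their group means correlated across genes at 0.374, 0.211 and 0.553. Not all pairs of different donors were taken beside them, so these values do not show whether the donor pairs samples. Libraries of a group differ in donor or culture only as far as the labels say, so p-values measure the spread between these samples. Members given in full are at most 10 each way with lactate, called and without overlap, and the 6 largest called changes each way on activation. Every member could be named, and other genes named were chosen from the list after their values were seen. Alternatives were other scalings, DESeq2 1.42.0, no filter, the compared groups alone, blocks by donor and title number, a library run term, an adjusted p of 0.05, a pseudocount of 1 TPM and leaving out each library. The donor block in the 8 activated libraries was chosen once the data had been seen.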

Additional observations from a re-analysis of the deposited data

Results flagged for a closer look

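A sample was set apart where its gap to the nearest sample of its group of 4, relative to the range of the group, passed Dixon's critical value. Over 192 groups (64 members in 3 groups) 13 such samples were found, where chance gives about 1 in 20, or 9.6. Naïve 4 accounts for 7 of them. It was high for Eif5b (202 CPM, the others 138 to 144), Eif6 (109, the others 72.1 to 76.1), Eif4h (308, the others 208 to 221), Eif3b (262, the others 203 to 213), Eif2ak3 (188, the others 53.5 to 62.6) and Eif3c (334, the others 256 to 262), and low for Eif1 (368, the others 426 to 438). Media 4 was high for Eef1b2 at 1050 CPM. Media 2 was low for Eef1aknmt at 13.8 CPM and for Eef1g at 584 CPM. Lactate 1 was high for Eif4h at 630 CPM. Lactate 2 was low for Eif4enif1 at 191 CPM and for Eif5 at 361 CPM.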

How the results depend on the processing

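The count of members that rose with lactate was 37, and 37 to 44 with the 2 groups alone, DESeq2, other scalings, a run term, a title number block, no filter or an adjusted p of 0.05. It was 15 with the donor block in 12 libraries and 34 with the donor block in the 8 activated libraries, and 30 to 41 when single libraries were left out. Over all genes 13.9% were higher in the main fit, 19.8% with the 2 groups alone and 18.7% without naïve 4. With the donor block 4.54% were higher in 12 libraries and 14.7% in 8. In the other settings, here and below, the share over all genes was not taken, so their counts cannot be set against it. The count of members lower was 0, and 1 (Eif2ak3) with the 2 groups alone and with the donor block in 8 libraries, with 0 to 1 over left-out libraries (1 without naïve 4). Counts on activation were 25 to 32 higher and 6 to 8 lower over left-out libraries. For lactate against naïve cells the count lower was 5 with the size factors of DESeq2, 7 with DESeq2 and 6 at an adjusted p of 0.05, and 2 to 6 over left-out libraries (6 without naïve 3), with 45 to 52 higher. The median for that comparison was 0.80 with the size factors of DESeq2 and with DESeq2, and 0.79 to 0.94 over left-out libraries (0.79 without naïve 2). The cause of these shifts was not tested. No scaling moved the median of all genes by over 0.1.

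Some values near 0 changed sign. With the donor block in 12 and in 8 libraries Eif1b was 0.014 and 0.026, and Eif2s3y 0.017 and 0.031. With total counts scaling Eef1akmt2 was -0.00068 and Eif4ebp2 -0.00628. Over left-out libraries, lactate against media ran from -0.046 to 0.073 for Eif2ak4, -0.15 to 0.031 for Eif2a, -0.021 to 0.10 for Eif4ebp2, -0.057 to 0.049 for Eif1, -0.057 to 0.042 for Eif4a2 and -1.76 to 0.074 for Eif2s3y, and media against naïve from -0.27 to 0.053 for Eef2k and -0.35 to 0.80 for Eif2s3y. In that comparison Eef2k was 0.016 with the title number block and 0.00798 with the run term, and Eif2s3y -0.62 with the title number block. The log2 ratio of Eif2s3x to Eif2s3y in media against naïve was 0.47 and ran from -1.84 to 2.64 over left-out libraries. It was 8.38 in naïve 1 and 9.24 in media 3, where Eif2s3y had 0 counts, and -0.93 to 0.76 in the other libraries of these groups. The difference thus follows which libraries lacked Eif2s3y and does not show a shift between the genes. With exact permutation tests over 3 against 4, Eif4ebp1 to Eif4ebp2 in lactate against media ran from 0.28 to 0.50 (0.50 without media 3), Eef2 to Eef2k from 0.37 to 0.55 (0.55 without media 4), and in media against naïve Eif4g1 to Eif4g3 ran from 0.31 to 0.56 and Eef2 to Eef2k from 0.55 to 1.04 (0.56 and 1.04 without naïve 4), each passing an unadjusted 0.05 only without that library.

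Media and lactate libraries of the same title number correlated at 0.374, 0.297, 0.0038 and 0.553. Those numbered 1 and 4 are also donor pairs, so the values do not tell pairing by title number from pairing by donor. Blocking by title number gave 38 members higher. Without lactate 3, 7 of the 37 lost their call, with up to 6 for any other activated library, and none reversed among those 37. Without naïve 4, 5 members more passed (Eif2ak3, Eif3c, Eif4g3, Eif4h and Eif5a2). The share of all genes passing rose as well, from 25.1% in the main fit to 35.6% without naïve 4.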
